A study of Gallus gallus with 2 samples.

Results

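The genes described here encode carriers that move amino acids, amino acid neurotransmitters, sugars and monocarboxylates such as lactate across cell membranes. All chicken probe sets were taken whose single gene symbol in the platform annotation begins with SLC1A, SLC2A, SLC3A, SLC6A, SLC7A, SLC16A, SLC36A, SLC38A or SLC43A. This gave 180 of 37693 chicken probe sets and 73 of 13008 genes. Of the 73 genes, 45 were measured, meaning that the mean log2 signal of the brightest probe set was at or above the median over all chicken probe sets, a signal of 118. One member, SLC7A6OS, is named for its place opposite SLC7A6 and not as a transporter. It is kept because the symbol matches.

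Both samples were cells of chicken embryo neural tube, sorted for GFP after electroporation at Hamburger-Hamilton stage 9 and collected at stage 11 by their labels. The control sample (1 array) received pSuper-neo-GFP, and the knockdown sample (1 array) received pSuper-neo-GFP-Sox4-shRNA together with pSuper-neo-GFP-Sox11-shRNA, so GFP and electroporation are common to both. The treatment text also mentions 2 days of incubation, which leaves the stage uncertain. How many embryos stand behind each sample was not stated in the labels. With 1 array per group there is no replicate check and no test. "Higher" and "lower" describe these arrays, precision is limited by there being 1 array each, and in sorted bulk cells fewer cells of a type and less RNA per cell cannot be told apart.

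As background, glucose enters cells through facilitative SLC2 carriers, and lactate and pyruvate cross with protons on SLC16 monocarboxylate carriers. Essential amino acids enter largely by exchange through SLC7 light chains that pair with SLC3 heavy chains. Many SLC38 and some SLC1 carriers move small neutral amino acids in a way that depends on sodium. Other SLC1 and SLC6 carriers clear glutamate, glycine, GABA and monoamines around neurons. In the developing nervous system SLC1A3, the glutamate-aspartate transporter, is known as a marker of radial glia and their progenitors.

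Signals are given in the order control, knockdown throughout. The hairpin targets were both lower on the knockdown array, SOX4 at 6604 and 3157 and SOX11 at 4552 and 2790 (log2 ratios -1.06 and -0.71). The knockdown array had the higher median signal over chicken probe sets, 134 against 113. Background, the 95th percentile of viral probe sets, was 63.6 and 65.8. As a measure of RNA quality, the 3' end over the 5' end of the actin controls gave 5.45 and 1.85, of the EF1A controls 2.92 and 1.5, and of the GAPDH controls 1.23 and 1.08. Of the neuronal markers of the tissue, 8 of 9 were at least 1.5-fold lower (summed signal 93401 and 51451), while progenitor markers had 1 of 8 higher and 1 of 8 lower (122888 and 110707). Those were SOX2 (1581 and 2675, log2 ratio 0.76) and SOX1 (2475 and 1456, log2 ratio -0.77), and the list's median was -0.23. Markers at least 1.5-fold higher were 6 of 6 for red blood cells (30417 and 71175), 9 of 10 for muscle (2523 and 13939), 5 of 9 for endothelium (2637 and 4360), 4 of 5 for endoderm (1482 and 2685) and 2 of 6 for surface ectoderm (5301 and 7333). The surface ectoderm median was 0.060 and fell below 0 under the 3 other scalings described below. Neural crest markers had 1 of 7 higher and 1 lower (17199 and 15428). No marker was listed at 0. The part of these differences in the transporter values below was not tested.

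Across the 45 measured transporter genes the log2 ratio of knockdown over control ran from -1.39 to 1.30, with a median of -0.017, beside a median of 0.020 over all 9303 measured genes. At least 1.5-fold higher on the knockdown array were 10 of the 45 (22.2%), against 11.4% of all measured genes. At least 1.5-fold lower were 6 (13.3%), against 5.71%. Past 2-fold were 1 higher gene (3.64% of all measured genes) and 2 lower genes (1.06%). The remaining 29 lay within 1.5-fold, so 35.6% of the transporters lay outside that range, compared with 17.1% of all measured genes.

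Dim genes spread more on these arrays, and the transporters were dimmer than other genes, with a median signal of 611 against 1560. Of the 20 transporter genes among the brightest 25% of chicken probe sets (mean signal of 813 or more), 4 were higher and 2 lower by this limit, beside 4.84% and 4.98% of all genes there. Of the 25 dimmer ones, 6 were higher and 4 lower, beside 22.7% and 6.96%. The share of higher genes among the dimmer transporters was thus near that of all dim genes.

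The split between higher and lower depended on how the arrays were scaled. It was 10 to 6 as deposited, 6 to 8 after quantile normalization, 6 to 8 after loess centring and 3 to 11 after median centring, a scaling that shifts the median of all measured genes from 0.020 to -0.23. The shares of all measured genes higher and lower moved as well, to 7.76% and 8.13% after quantile normalization, 8.03% and 7.80% after loess centring and 5.94% and 14.9% after median centring. All 6 lower genes kept their 1.5-fold difference in the 3 scalings, and 3 of the 10 higher genes did (SLC2A9L, SLC2A9 and SLC6A20). SLC43A3, SLC6A2, SLC16A12 and SLC7A2 lost it in all 3, and the others under median centring only. Each of the 6 lower genes lay further below 0 in all 3 scalings than as deposited, so none could lose the difference there. The counts kept are therefore no check on the lower genes, and no matching share over all genes is given here.

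**Figure D1:**
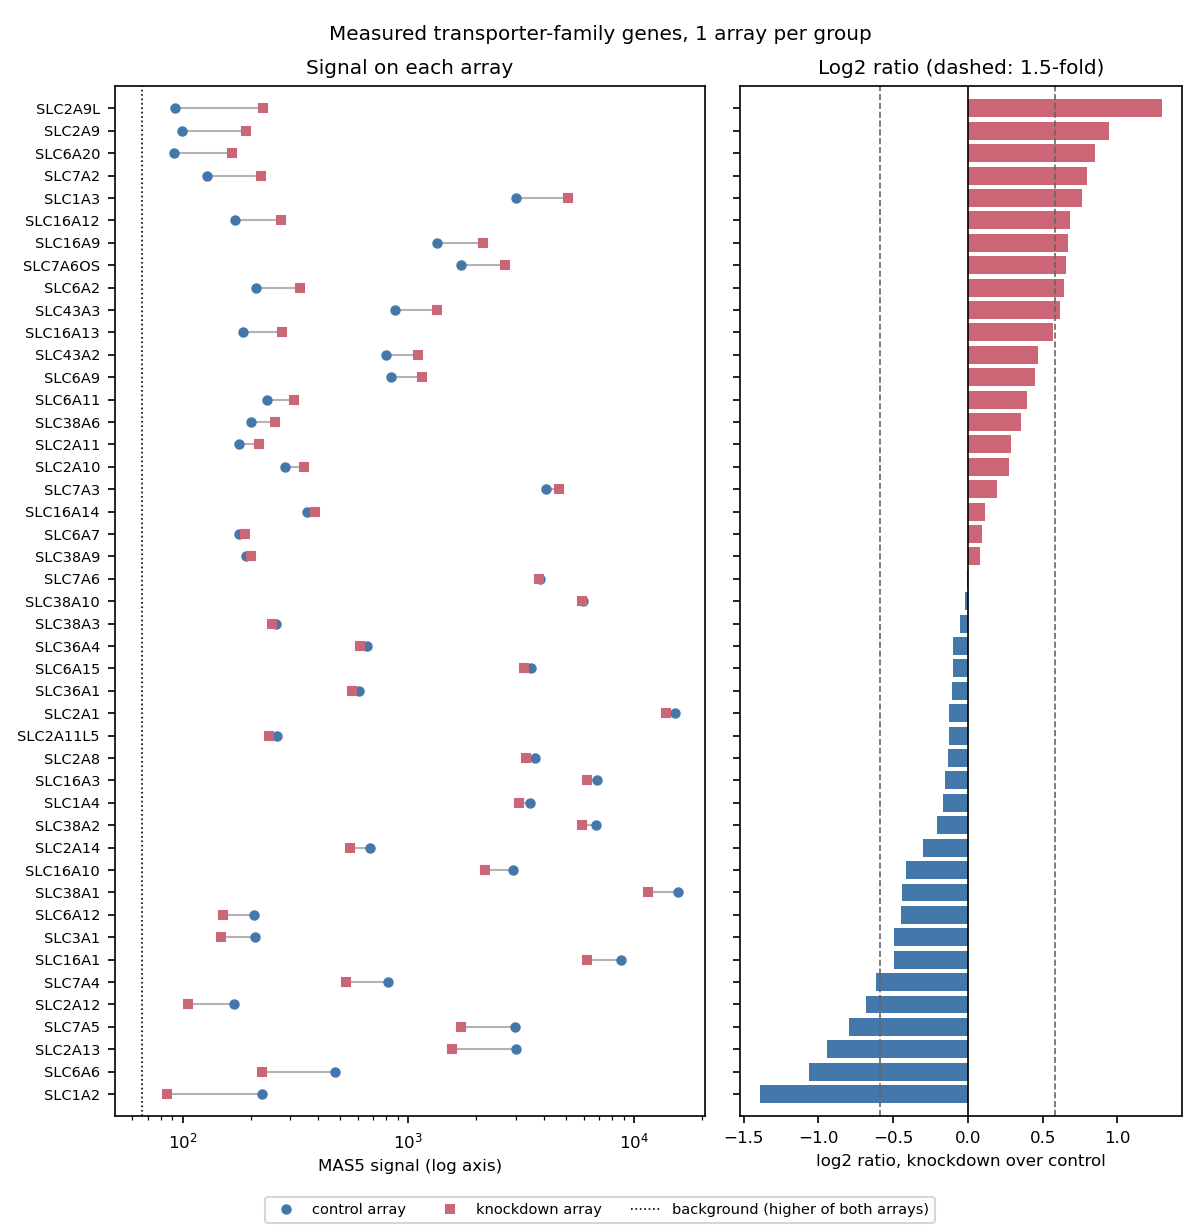
Signal of each measured transporter-family gene on the control array (circles) and the knockdown array (squares), on a log axis, and the log2 ratio of knockdown over control on the right. Genes are ordered by log2 ratio, from SLC1A2 at -1.39 to SLC2A9L at 1.30, and the dashed lines mark 1.5-fold. There is 1 array per group and no error bar.

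Among the exchangers of large amino acids, SLC7A5 was lower on the knockdown array. SLC7A5 encodes the light chain of LAT1, which imports leucine and other essential amino acids. The brightest probe set of SLC7A5 had 2971 for the control and 1709 for the knockdown (log2 ratio -0.80, 1.74-fold lower). A second measured probe set of SLC7A5 had 1339 and 779 (log2 ratio -0.78), so both gave nearly the same difference. Another, below the measuring limit, had 75.3 and 145 and went the other way. SLC7A5 stayed at least 1.5-fold lower in 9 of 10 alternative settings. The exception was the mean over all probe sets, at -0.48. Filters or a floor at background leave the ratio of so bright a gene as it is, and the 3 scalings moved it further below 0. Most of the 10 settings were therefore no check on SLC7A5.

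Other members of the SLC7 family lay on both sides of 0. SLC7A4, whose transport role is little known, had 810 and 529 (log2 ratio -0.62), but its other measured probe set had 535 and 596 (log2 ratio 0.16), so its direction is not the same across probe sets. SLC7A3, a carrier of arginine and lysine, was nearly even, with 4082 and 4663 (log2 ratio 0.19). Its other measured probe set had 224 and 176 (log2 ratio -0.34), and the mean over both was -0.075. SLC7A2, another carrier of these cationic amino acids, was dim and had 128 and 223 (log2 ratio 0.80). SLC7A6, a light chain that exchanges cationic for neutral amino acids, had 3825 and 3807 (log2 ratio -0.0066). SLC7A6OS, its neighbour in the RefSeq gene table, had 1709 and 2689 (log2 ratio 0.65). A dimmer probe set of SLC7A6 itself gave 199 and 471 (log2 ratio 1.24). The cystine exchanger gene SLC7A11 had 74.6 and 100 on its brightest probe set, close to background, and was not measured.

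Only SLC3A1 represented the heavy chains, with 209 and 148 (log2 ratio -0.49, 1.41-fold lower), and it passed 1.5-fold in the other scalings. SLC3A1 pairs with SLC7A9 in mammals to take up cystine and basic amino acids, and SLC7A9 lay below background on both arrays (51.9 and 55.5). SLC3A2, the heavy chain of LAT1, had no probe set matched by symbol and was not analysed here. Of the SLC43 genes, 1 of 2 (SLC43A3) was at least 1.5-fold higher, beside 11.4% of all measured genes. SLC43A3 fell short of that limit in the 3 other scalings. SLC43A2, a facilitative carrier of branched-chain amino acids, had 799 and 1106 (log2 ratio 0.47), and SLC43A3, known in mammals as a carrier of purine bases, had 875 and 1339 (log2 ratio 0.61).

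As deposited, the sodium-coupled carriers of small neutral amino acids lay within 1.5-fold on their brightest probe sets. For several the direction was not the same across probe sets. SLC38A1, a glutamine carrier, had 15638 and 11521 on its brightest probe set (log2 ratio -0.44) and 12824 and 9729 on the next (log2 ratio -0.40). Its 6 measured probe sets ranged from -0.44 to 1.22, and the 2 above 0 had 1692 and 2193, and 88.8 and 207. SLC38A2, whose product carries alanine and glutamine, had 6794 and 5874 (log2 ratio -0.21), and its dim probe set had 93.6 and 186. Averaged over measured probe sets, SLC38A1 was at 0.045 and SLC38A2 at 0.39. SLC38A1 and SLC38A2 are neighbours in the RefSeq gene table, with no protein-coding gene between them.

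None of the 6 measured SLC38 genes lay past 1.5-fold as deposited, beside 17.1% of all measured genes. SLC38A1 passed it under median centring (-0.69), but not after quantile normalization (-0.39) or loess centring (-0.38). SLC38A9, part of the lysosomal amino acid sensor, had 191 and 202 (log2 ratio 0.078). SLC38A10 had 5934 and 5865, SLC38A3 had 258 and 249, and SLC38A6 had 202 and 258 (log2 ratio 0.36), with both measured probe sets above 0. The serine and alanine carrier gene SLC1A4 had 3465 and 3087 (log2 ratio -0.17) on the brightest probe set, and 494 and 1279 (log2 ratio 1.37) on the other, so that their mean was 0.60. The proton-coupled carriers SLC36A1 (607 and 564) and SLC36A4 (654 and 611) had log2 ratios of -0.11 and -0.097. The 4 measured probe sets of SLC36A1 ranged from -0.72 to 0.34. The dimmer measured probe set of SLC36A4 gave 1.07, and the mean over measured probe sets 0.48.

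The glutamate carriers differed from one another. SLC1A3 had 3002 for the control and 5095 for the knockdown (log2 ratio 0.76, 1.70-fold higher). Its second probe set had 1753 and 3033 (log2 ratio 0.79), so both probe sets were higher by nearly the same amount. SLC1A3 lost its 1.5-fold difference under median centring only, at 0.52. SLC1A2, the main glutamate carrier of mature mammalian astrocytes, went the other way, with 225 and 85.5 (log2 ratio -1.39, 2.63-fold lower). It has a single probe set and came close to background on the knockdown array.

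In the SLC6 family of neurotransmitter and amino acid carriers, 2 of 8 measured genes were higher and 1 was lower by at least 1.5-fold, beside 11.4% and 5.71% of all measured genes. SLC6A6, the taurine carrier gene, had 471 and 225 (log2 ratio -1.07, 2.09-fold lower), and its second measured probe set had 304 and 197 (log2 ratio -0.62). Both measured probe sets of SLC6A6 were therefore lower. SLC6A20, a proline carrier, had 91.9 and 166 (log2 ratio 0.85), and the noradrenaline carrier gene SLC6A2 had 211 and 330 (log2 ratio 0.65). Each of these higher genes was dim and had 1 measured probe set. SLC6A2 lost its 1.5-fold difference in the 3 other scalings, and SLC6A20 stood at -0.20 when its unmeasured probe sets were averaged in.

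SLC6A9, which encodes the glycine carrier GlyT1, had 838 and 1147 (log2 ratio 0.45). The neutral amino acid carrier gene SLC6A15 was even on its brightest probe set, with 3491 and 3254 (log2 ratio -0.10). Its other measured probe sets gave 0.27 and -0.44. The GABA carrier gene SLC6A11 had 237 and 312, the betaine and GABA carrier gene SLC6A12 had 206 and 151, and the proline carrier gene SLC6A7 had 178 and 190. SLC6A5, the glycine carrier of inhibitory nerve endings, lay below background on both arrays (51.1 and 33.1), and the serotonin carrier gene SLC6A4 did so in the control (36.6 and 87.4). SLC1A5 had no matched probe set and was not analysed here.

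The main glucose carriers lay within 1.5-fold. SLC2A1, which encodes GLUT1, had 15136 and 13882 (log2 ratio -0.12). SLC2A14, for which the RefSeq table lists GLUT3 and SLC2A3 as older names in chicken, had 679 and 550 (log2 ratio -0.30), with 187 and 197 on its other measured probe set. SLC2A8, an intracellular hexose carrier, had 3630 and 3311 (log2 ratio -0.13). SLC2A10, SLC2A11 and SLC2A11L5 had log2 ratios of 0.28, 0.29 and -0.13.

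Lower among the SLC2 genes was SLC2A13, the proton-coupled myo-inositol carrier, which had 2990 and 1559 (log2 ratio -0.94, 1.92-fold lower). SLC2A13 was lower by at least 1.5-fold in 10 of 10 alternative settings, with a range of -1.19 to -0.91, but it has 1 probe set. Averaging probe sets could therefore not change it, and filters or a floor at background leave the ratio of so bright a gene as it is. The 3 scalings moved it further below 0. Most of the 10 settings were thus no check on SLC2A13. SLC2A12, which encodes GLUT12, was dim and had 170 and 106 (log2 ratio -0.68), and an unmeasured probe set of it had 49.5 and 84.7. On the other side, the urate carrier gene SLC2A9 had 99.6 and 192 (log2 ratio 0.95), and SLC2A9L had 92.6 and 228 (log2 ratio 1.30, 2.46-fold higher). Both were dim, and SLC2A9 has 1 probe set. SLC2A9L was the only member at least 2-fold higher, and its next probe set, below the measuring limit, had 84.2 and 47.8.

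**Figure D2:**
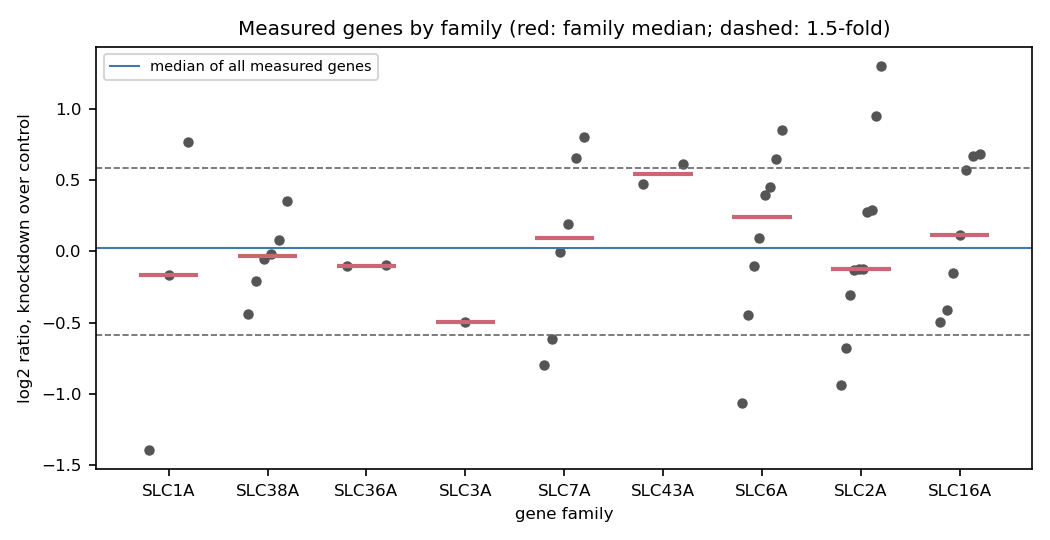
Log2 ratios of knockdown over control for the measured genes of each family (points), with the family median (red line), the median of all measured genes (blue line at 0.020) and 1.5-fold (dashed lines). The SLC2A, SLC6A, SLC7A and SLC16A families hold genes on both sides of 0, and the 6 SLC38A genes lie within 1.5-fold.

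Monocarboxylate carriers that move lactate were, as deposited, lower by less than 1.5-fold or even. SLC16A1, which encodes MCT1, had 8766 and 6216 (log2 ratio -0.50, 1.41-fold lower). It passed 1.5-fold under median centring (-0.74), but not after quantile normalization (-0.45) or loess centring (-0.45). All 4 measured probe sets of SLC16A1 were below 0, from -0.60 to -0.022. SLC16A3, which encodes the lactate exporter MCT4, had 6889 and 6189 (log2 ratio -0.15). Their membrane partner BSG, known as basigin, had 21400 and 20620 (log2 ratio -0.054).

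Past 1.5-fold as deposited in the whole SLC16A family were 2 of 7 measured genes, both higher. Of all measured genes, 17.1% lay past 1.5-fold in either direction and 11.4% were higher. Both have other known substrates. SLC16A9, linked to carnitine and creatine transport in mammals, had 1341 and 2133 (log2 ratio 0.67), and its second probe set had 244 and 458 (log2 ratio 0.91). SLC16A12, a creatine carrier in mammals, had 170 and 273 (log2 ratio 0.68) on its measured probe set. SLC16A12 fell short of 1.5-fold in the 3 other scalings and stood at -0.94 when unmeasured probe sets were averaged in. SLC16A13 stood just inside the limit, at 185 and 275 (log2 ratio 0.57), and SLC16A14 was even, at 357 and 386. The aromatic amino acid carrier gene SLC16A10 had 2914 and 2186 (log2 ratio -0.41). Its 3 brightest probe sets were all lower, and the other 2 measured ones were higher, at 0.33 and 0.89.

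Most families held genes on both sides of 0. Family medians were -0.17 for SLC1A (3 measured genes), -0.13 for SLC2A (10), 0.24 for SLC6A (8), 0.093 for SLC7A (6), 0.11 for SLC16A (7), -0.10 for SLC36A (2), -0.035 for SLC38A (6), 0.54 for SLC43A (2) and -0.49 for the single SLC3A gene. Of these 9 medians, 7 changed sign under at least 1 alternative, and only those of SLC3A and SLC43A did not.

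Different probe sets of a gene often disagreed. Of the 21 transporter genes with several measured probe sets, 12 (57.1%) had log2 ratios on both sides of 0, beside 53.0% of 3853 such genes on the array. Medians were -0.11 for the brightest probe sets and 0.12 for the 34 dimmer ones, against -0.049 and 0.21 over all such genes. The standard deviation between probe sets of a gene was 0.51 in the transporters and 0.48 over all genes, close to the 1.5-fold limit of 0.58. No transporter gene had measured probe sets past 1.5-fold in opposite directions, but the share of the 3853 genes that did was not computed. Of the 16 genes past 1.5-fold, 5 had a second measured probe set, and in 4 of them it pointed the same way (SLC1A3, SLC7A5, SLC6A6 and SLC16A9). No matching share over all genes past 1.5-fold is given here. The probe sets of SLC1A3 share a target name and may not be independent.

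**Figure D3:**
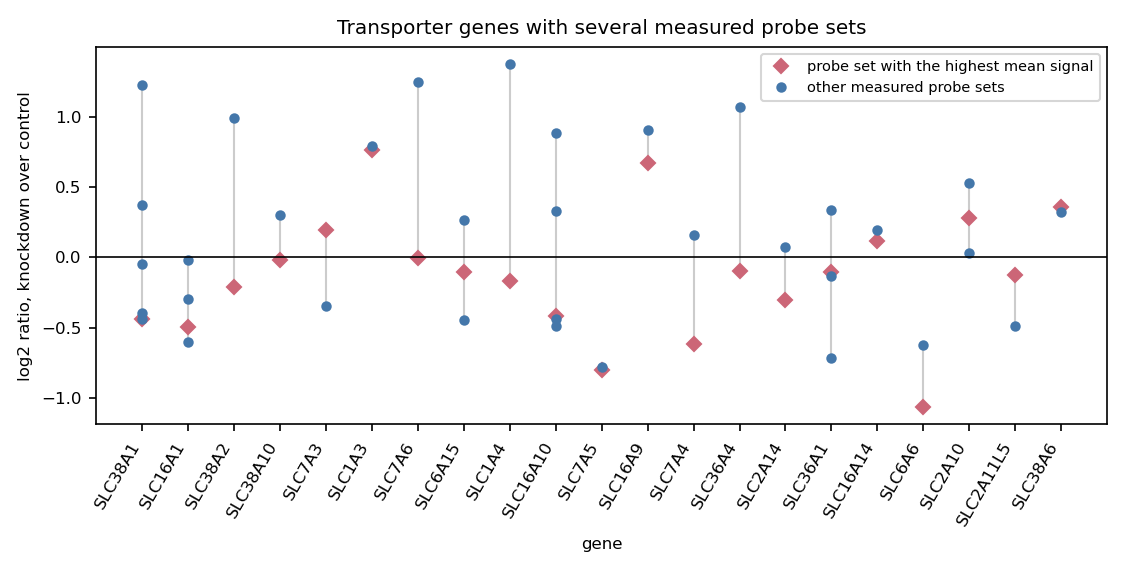
Log2 ratios of knockdown over control for each measured probe set of the 21 transporter genes that have several, with the brightest probe set as a diamond and the others as circles. Genes are ordered by the signal of the brightest probe set. Both probe sets of SLC1A3 lie near 0.76 to 0.79 and both of SLC7A5 near -0.80 to -0.78, while SLC38A1, SLC1A4 and SLC7A6 span 0.

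The 28 genes not measured give no firm fold. SLC16A7, SLC16A8, SLC1A6, SLC1A7, SLC2A11L4, SLC38A4, SLC6A17, SLC6A19, SLC6A5, SLC6A8 and SLC7A9 lay below background on both arrays. SLC16A5, SLC1A1, SLC2A11L1, SLC7A1 and SLC7A11 lay above it on both, with signals from 63.9 to 154. Below background in the control only were 8 genes. Set against the control background, the knockdown signal was 2.65-fold for SLC2A6 (16.6 and 168) and 1.94-fold for SLC38A11 (47.0 and 123). It was 1.56-fold for SLC16A6 (49.4 and 98.9) and 1.54-fold for SLC2A5 (16.4 and 97.8). The other 4 were SLC2A2, SLC6A4, SLC7A10 and SLC7A14. Below background in the knockdown only were SLC16A4, SLC38A7, SLC7A7 and SLC7A13. SLC16A4 had 100 and 36.8, and its control signal was 1.52-fold against the knockdown background.

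Genes that work with the carriers were listed apart from them, except that SLC38A9 also counts in the list of amino acid sensing. In the list of glycolysis and lactate genes, 0 of 17 measured members lay past 1.5-fold in either direction, and the median log2 ratio was 0.0036. The member closest to the limit was the aldolase gene ALDOC (16593 and 24636, log2 ratio 0.57), which passed it after quantile normalization (0.61) and loess centring (0.64). HK2, a hexokinase gene, had 247 and 284, the pyruvate dehydrogenase kinase gene PDK4 had 331 and 396, and the isomerase gene GPI had 24250 and 21263. The partner proteins of SLC16 carriers were also inside the limit, with EMB, embigin, at 1576 and 2133 (log2 ratio 0.44) and NPTN, neuroplastin, at 6031 and 7111 (log2 ratio 0.24).

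The next list held amino acid synthesis genes, ATF4 (the transcription factor of the amino acid response), targets of ATF4, and the kinase genes EIF2AK1 to EIF2AK4. Of its 19 measured members, 3 were higher and 2 lower by at least 1.5-fold, with a median of 0.11. ASNS, asparagine synthetase, had 3611 and 1702 (log2 ratio -1.09), whereas the phosphoserine phosphatase gene PSPH had 420 and 830 (log2 ratio 0.98, and 0.56 as a mean over probe sets). ATF4 itself was even, at 25016 and 24933 (log2 ratio -0.0048). The transcription factor genes ATF3 (135 and 581, log2 ratio 2.11) and CEBPB (641 and 1563, log2 ratio 1.29) were higher.

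Cytosolic aminoacyl-tRNA synthetases, which load amino acids onto tRNA, had 0 of 18 members higher and 1 lower by at least 1.5-fold, with a median of -0.11. That 1 was the tyrosine enzyme gene YARS (4697 and 2376, log2 ratio -0.98). WARS, FARSA and SARS1, for tryptophan, phenylalanine and serine, had log2 ratios of 0.36, 0.32 and 0.31. Genes of amino acid sensing by the growth kinase complex mTORC1 had 2 of 16 higher and 2 of 16 lower, with a median of -0.040. Higher were MLST8, a subunit of the complex (858 and 1498, log2 ratio 0.80), and its activator RHEB (4938 and 7984, log2 ratio 0.69). Lower were the inhibitors TSC1 (2487 and 1350, log2 ratio -0.88) and NPRL3 (193 and 119, log2 ratio -0.70). MLST8 (0.56) and RHEB (0.45) fell short of 1.5-fold under median centring, but not after quantile normalization or loess centring. NPRL3 stood at -0.073 as a mean over measured probe sets, and TSC1 at -0.16 as a mean over all probe sets.

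Of the genes that make, package or convert neurotransmitters, 3 of 8 measured members were lower by at least 1.5-fold and 0 higher. The median was -0.38 (0.018 with the filter at the 75th percentile). SLC32A1, the vesicular carrier of GABA and glycine, had 659 and 294 (log2 ratio -1.17). SLC18A3, the vesicular acetylcholine carrier, had 3116 and 1652 (log2 ratio -0.92), and CHAT, which makes acetylcholine, had 186 and 103 (log2 ratio -0.85). The GABA enzyme gene GAD1 had 236 and 173 (log2 ratio -0.45). Neuronal markers were lower on the same array, with a median of -0.83 over 9 genes. The shares of all measured genes past 1.5-fold given above, 11.4% higher and 5.71% lower, are not matched to these lists for brightness. Among the brightest 25% of chicken probe sets they were 4.84% and 4.98%, and among dimmer measured genes 22.7% and 6.96%. All 18 synthetase genes and most of the 17 glycolysis and lactate genes had signals above 813 on both arrays. For those lists the shares of bright genes are the closer comparison, so their low counts stand out less. Each of the 6 list medians in this and the preceding paragraphs, that of the SLC16 partners included, changed sign under at least 1 alternative setting.

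**Figure D4:**
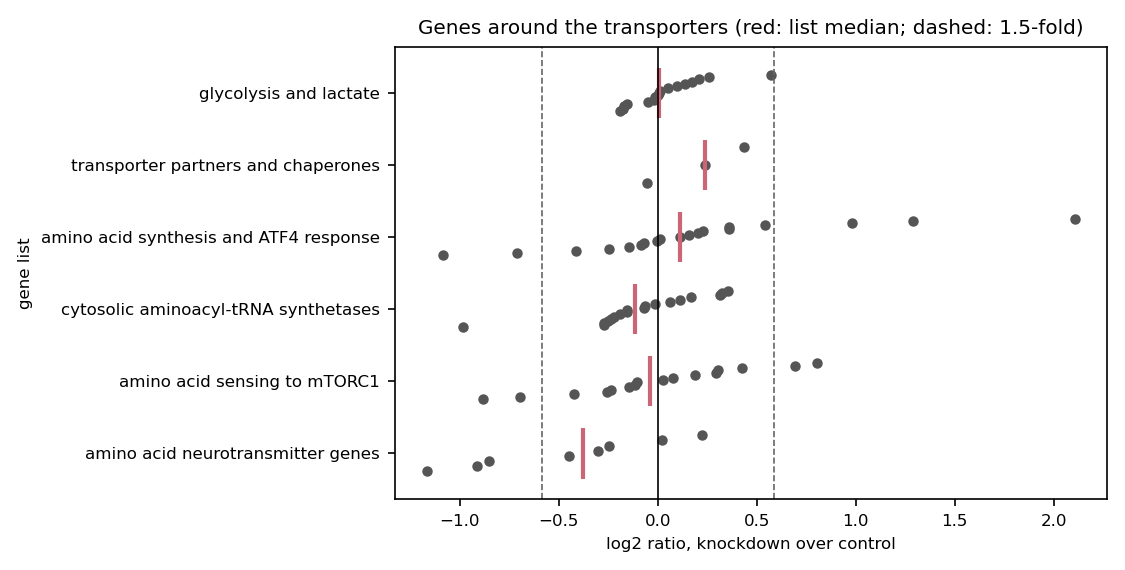
Log2 ratios of knockdown over control for the measured genes of 6 lists around the transporters (points), with list medians (red lines) and 1.5-fold (dashed lines). All 17 glycolysis and lactate genes lie within 1.5-fold, and the neurotransmitter list has the lowest median, -0.38.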

How the data were processed

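Per the labels' protocols, 100 ng of total RNA was amplified and biotinylated by 3' in vitro transcription for Affymetrix chicken arrays. The deposited table gives a linear signal intensity for every probe set, computed by MAS5 5.0 per the submitters' processing notes. Their means, trimmed by 2% at each end, were 1000.3 on both arrays, so the deposited values had been scaled, and no detection calls were used. Deposited values were used without further scaling and put on the log2 scale.

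Of the chicken probe sets, 27166 had 1 symbol, 177 several and 10350 none, and the last 2 kinds were left out. The probe set of highest average log2 signal stood for its gene. Symbols are those of the platform annotation. A RefSeq gene table (assembly GRCg7b) served for newer names and neighbouring genes, with 71 of 73 transporter genes found and no coordinates used. Background was taken over 687 viral probe sets without a chicken gene. Folds against it set 1 signal on 1 array against that percentile and are not lower bounds on a true difference. By this measure, unmeasured probe sets of SLC7A3 gave both 2.67-fold higher and 1.70-fold lower. Genes were counted at 1.5-fold and 2-fold, and the counting code was tested on simulated data. Differences there were planted at 2-fold or more, with less noise than between probe sets of a gene here. That run says nothing about how reliable the present counts are.

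Members, lists and thresholds were chosen with earlier results of these data known. Named genes are the hairpin targets, every measured member past 1.5-fold, the brightest member of each family, fixed examples, members at least 1.5-fold above background on 1 array only, and up to 4 genes with the largest log2 ratio in each list. Other members are named to account for all of them, and ATF4, SOX1 and SOX2 were added after their values were seen. Software was Python 3.11.15, pandas 2.3.3 and statsmodels 0.14.6. No promoter or protein sequences were used here. Alternatives were 3 scalings, 3 filters on signal, 2 ways to average probe sets, 2 treatments of low signal and updated symbols.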

Additional observations from a re-analysis of the deposited data

How the results depend on the processing

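No test was made, so a setting can only move a count or a value. With updated symbols, without SLC7A6OS (9 higher genes) or with genes above background on both arrays, counts stayed within 1.5 times. The last 2 were added after the data were seen, and their outcome was fixed in advance. All 45 measured transporter genes were already above background on both arrays, and leaving out 1 gene moves a count by at most 1. Median centring gave 3 higher and 11 lower transporter genes at 1.5-fold, 4 lower at 2-fold and a median of -0.26. Of all measured genes, 5.94% were then higher and 14.9% lower at 1.5-fold, and 2.89% lower at 2-fold. Quantile normalization and loess centring each gave 6 higher. Without a filter on signal there were 22 higher and 12 lower at 1.5-fold, 10 and 6 at 2-fold, and a median of 0.11, beside 18.9% and 10.4%, and 9.99% and 5.01%, of all genes. With the filter at the 25th percentile the figures were 20 and 11, 8 and 5, and 0.097, beside 16.01% and 7.95%, and 7.01% and 2.72%. With the filter at the 75th percentile, which leaves 20 genes, they were 4 and 2 at 1.5-fold, and 0 and 0 at 2-fold. The shares of all genes there were 4.84% and 4.98%, and 1.21% and 0.78%. The mean over measured probe sets gave 1 gene lower at 2-fold and a median of 0.14, beside 0.87% and 0.099 for all genes. The mean over all probe sets gave 0 higher at 2-fold and a median of 0.14, beside 7.14% and 0.14 for all genes. Adding 64.7, the mean background, to every signal gave 5 higher at 1.5-fold and 0 past 2-fold in either direction. The shares of all genes under that setting are not given here, so those counts cannot be set against the array.

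Only genes chosen by the naming rules above were followed singly through the settings. Thus SLC7A6 (measured probe sets at -0.0066 and 1.24) and SLC38A10 (-0.017 and 0.30) were not followed. Among the genes followed, averaging only measured probe sets turned the sign of SLC1A4 (0.60, past 1.5-fold), SLC38A1 (0.045), SLC38A2 (0.39) and SLC36A4 (0.48). The same averaging turned SLC7A3 (-0.075), GPI (0.048) and BSG (0.12). Averaging all probe sets turned all of the genes just given except SLC7A3, which was then at 0.65, and it turned SLC6A15 (0.060). It also turned the sign of SLC16A12 (-0.94), SLC2A12 (0.048), SLC6A20 (-0.20), CHAT (0.79), SOX4 (1.05) and SOX11 (0.98), through probe sets below the measuring limit. Of 16 transporter genes past 1.5-fold, 4 stayed so in every setting that kept them measured (SLC1A2, SLC6A6, SLC2A13 and SLC2A9). SLC1A2, SLC2A13 and SLC2A9 have 1 probe set each, so averaging could not change them. Filters and the floor at background change no ratio of these 4 genes. Staying past the limit is therefore no measure of how reliable a gene is. No paired analysis was possible because each group has 1 sample. Differences at signals near background are limited by it. Motifs in promoters were not run.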
